A study of Homo sapiens with 8 samples.

Results

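The alpha-arrestins examined here were the 5 genes TXNIP, ARRDC1, ARRDC2, ARRDC3 and ARRDC4. They were selected on measured values of these libraries: the set was chosen because ARRDC3 was higher with Z325 in both cell lines while TXNIP was lower in NCI-H716, and the values of ARRDC3 and TXNIP are therefore given as a description, without a test. ARRDC1, ARRDC2 and ARRDC4 joined the set as relatives in the family and not for values of their own. All 5 genes were found among the 63241 genes of the NCI-H716 tables. TXNIP and ARRDC3 were found among the 28043 genes of the HCT116 table, while ARRDC1, ARRDC2 and ARRDC4 were not analysed in HCT116.

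The study asked how the docking-derived compound Z325 (ZINC000101867325), selected against the fibroblast growth factor receptors, acts on colorectal cancer cells. RNA was sequenced from HCT116, an adherent colorectal carcinoma line, and from NCI-H716, a colorectal line with neuroendocrine features. Each line had 2 control libraries and 2 libraries titled Test, read here as Z325-treated, with about 100 cells per reaction. The labels name no genetic change in either group, and they give neither the dose nor the time of the Z325 treatment.

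Alpha-arrestins are adaptor proteins with an arrestin fold. Most of them carry short proline-rich motifs that bind NEDD4-family ubiquitin ligases, and in this way they bring a ligase to a membrane protein that is then ubiquitinated and sorted. TXNIP is known in addition for binding and inhibiting thioredoxin and for lowering glucose uptake, and its transcription follows the glucose-sensing factors MLXIP and MLXIPL with their partner MLX. ARRDC4 is likewise known as a glucose-responsive gene that lowers glucose uptake. ARRDC3 is known for acting on beta-adrenergic receptors and integrins, and ARRDC1 for recruiting TSG101 to the plasma membrane, where small vesicles bud.

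The 250 bases before the annotated start of TXNIP, ARRDC4 and ARRDC3 are shown because the first 2 genes had lower levels with Z325 and the last a higher one. They come from RefSeq on GRCh38.p14, and RefSeq listed a start for all 5 genes, with 8 windows between them. The TXNIP window is chr1:145996580-145996829 on the minus strand, the ARRDC4 window chr15:97960453-97960702 on the plus strand, and the ARRDC3 window chr5:91383318-91383567 on the minus strand. None of these 3 windows covers an annotated exon in GENCODE v44. Capitals mark 4 letter patterns searched on both strands: the E-box CACGTG, 2 copies of CACGNG separated by 5 bases (named here paired half-sites), the forkhead pattern GTAAACA and the CCAAT box.
TXNIP: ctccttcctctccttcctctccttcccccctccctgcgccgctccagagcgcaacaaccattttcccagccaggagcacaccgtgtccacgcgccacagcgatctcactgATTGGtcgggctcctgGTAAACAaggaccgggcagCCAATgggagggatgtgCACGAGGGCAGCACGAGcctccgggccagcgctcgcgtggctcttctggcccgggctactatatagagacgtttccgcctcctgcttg
ARRDC4: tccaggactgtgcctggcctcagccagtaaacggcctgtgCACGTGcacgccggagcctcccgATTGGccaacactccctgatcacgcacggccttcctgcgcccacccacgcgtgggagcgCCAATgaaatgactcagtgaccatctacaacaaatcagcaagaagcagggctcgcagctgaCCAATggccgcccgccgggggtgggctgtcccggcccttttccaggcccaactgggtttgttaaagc
ARRDC3: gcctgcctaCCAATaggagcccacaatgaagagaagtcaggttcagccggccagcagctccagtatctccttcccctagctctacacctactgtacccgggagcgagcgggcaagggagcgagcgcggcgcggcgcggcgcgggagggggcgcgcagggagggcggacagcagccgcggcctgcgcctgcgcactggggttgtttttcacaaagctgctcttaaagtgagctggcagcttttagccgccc

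In TXNIP, the paired half-sites lay 88 to 72 bases before the start, the forkhead pattern 124 to 118 bases before it, with 1 CCAAT box on each side of the latter. ARRDC4 held the E-box 210 to 205 bases before the start and 3 CCAAT boxes. The ARRDC3 window shown held 1 CCAAT box. A second, inner ARRDC3 start, not printed because 54 of its bases are annotated as exon, had the forkhead pattern 29 to 23 bases before it. Over 35116 windows of the same length, the paired half-sites were present in 16, or 0.0456%, the forkhead pattern in 2.98%, the E-box in 6.34% and the CCAAT box in 32.0%. The patterns were chosen after the sequences had been read, a match describes letters and not a bound site, and the gene-level values do not tell which start was used.

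**Figure D1:**
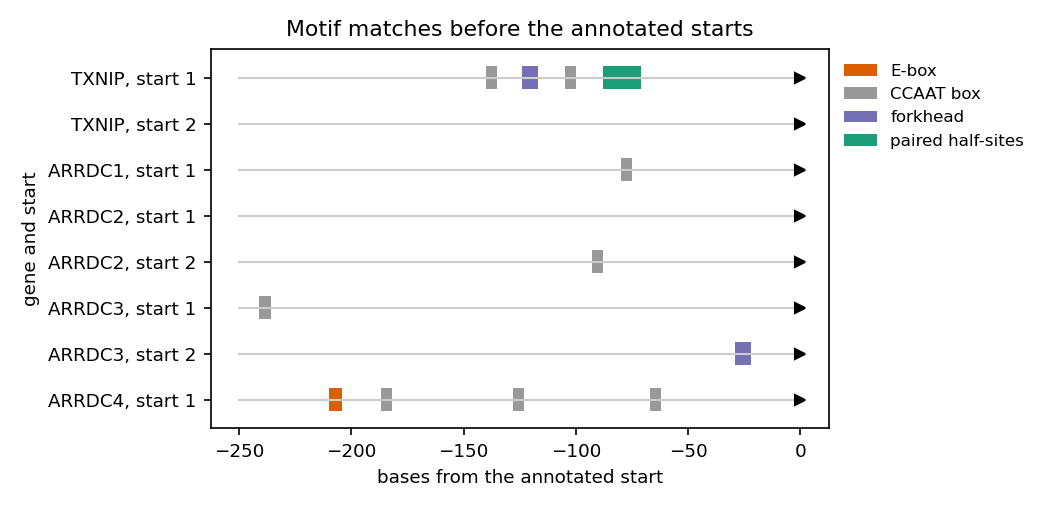
Positions of the 4 letter patterns in the 250 bases before each of the 8 annotated starts of the 5 genes, with the distance from the start in bases on the x axis and 1 row per start. The paired half-sites are drawn in the first TXNIP window, 88 to 72 bases before the start, and the E-box in the ARRDC4 window, 210 to 205 bases before it.

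The NCI-H716 libraries held 10210243 to 19738848 counts, and the HCT116 libraries 3434620 to 13396225, with Z325 replicate 2 the shallowest. The HCT116 table covers chromosomes 1 to 8 and the start of chromosome 9. Among counts of 5 to 50, even values made up 55.4 to 76.8% in HCT116 and 46.2 to 47.6% in NCI-H716, and the cause of the lean to even values was not tested. Of 6491 genes tested in HCT116, 184 were called higher with Z325 (2.83%) and 191 lower (2.94%) at an adjusted p under 0.05 in edgeR. Of 14142 tested in NCI-H716, 57 were called higher (0.403%) and 14 lower (0.099%). In NCI-H716, 6 of 9 colon epithelium markers and 6 of 7 neuroendocrine markers had at least 10 counts in every library, while CDX1 and NEUROD1 had at most 3 in each. Of the 3 colon epithelium markers in the HCT116 table, EPCAM was abundant, VIL1 was at 0 to 0.469 CPM and CDX1 had at most 3 counts. Of the 2 neuroendocrine markers listed there, SCG2 was at 14.6 to 22.5 CPM and NEUROD1 had at most 3 counts. Markers of blood, stromal and endothelial cells summed to at most 10.3 CPM in NCI-H716, where all 8 were listed. PTPRC, CD3E, COL1A1 and PECAM1 had no more than 3 counts in any NCI-H716 library. HBB was at 1.59 and 3.3 CPM in control and 4.89 and 7.69 CPM with Z325 there. In HCT116 only 2 of the 8, PTPRC and COL1A2, were listed. They summed to at most 0.938 CPM, so the sums of the lines cover unlike sets. Less RNA per cell and fewer cells of a type cannot be told apart in such bulk libraries.

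TXNIP (ENSG00000265972, chr1:145992435-145996579 on the minus strand, with no exon base shared with another gene) was the most abundant alpha-arrestin in every NCI-H716 library. Its FPKM (fragments per kilobase, scaled to the depth of the library) was 68.5 and 78.0 in control and 25.2 and 25.5 with Z325, or 73.3 ± 6.70 and 25.3 ± 0.170 (SD, n = 2 each). These levels rest on 2442 and 2085 counts in control and 878 and 1316 in Z325. Both control libraries lay above both Z325 libraries, and the fitted log2 fold change was -1.54 ± 0.16 (SE), or 2.91-fold lower. That placed TXNIP at position 209 from the lowest of the 14142 fold changes. Among the expressed genes of a library, 91.6 and 91.7% lay below TXNIP in the controls and 85.7 and 85.0% in the Z325 libraries.

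In HCT116 the count table lists TXNIP at 0 and 4 reads under control and at 0 and 2 under Z325, so the groups overlapped at the floor. A count of 0 allows up to 3 counts, or 0.225 CPM in control replicate 1 and 0.224 CPM in Z325 replicate 1. No fold was computed, because TXNIP did not pass the filter on low counts. The low listed count cannot be read as absence of expression. Of 815 genes in both tables that were at least as abundant as TXNIP in the NCI-H716 controls, 50 had at most 4 counts in every HCT116 library. Among these 50 were genes used by every cell, such as HNRNPR, a nuclear RNA-binding protein, SCAMP3, a trafficking protein, and MRPS18B, a mitochondrial ribosomal protein, which were named after their values had been seen. The 50 also held genes not used by every cell, such as the hormone genes GCG and GUCA2B, at 0 counts in every HCT116 library. These were likewise named after their values had been seen. Why the 50 genes were near 0 in the HCT116 table was not tested.

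ARRDC4 (ENSG00000140450, chr15:97960703-97973833 on the plus strand, no shared exon base) was next in level to TXNIP in the NCI-H716 controls. Its FPKM was 14.3 and 17.8 in control and 9.00 and 9.93 in Z325, or 16.1 ± 2.43 and 9.47 ± 0.658 (SD, n = 2 each). The groups did not overlap, and the log2 fold change was -0.77 ± 0.19, an interval of -1.14 to -0.40 at 2 SE. With edgeR's quasi-likelihood test the adjusted p was 0.115 and the unadjusted p 0.00182, so ARRDC4 did not pass over all genes. It passed with DESeq2 (adjusted p = 0.0304), and over all alternatives the adjusted p ran from 1.11e-05 to 0.52. Its log2 fold change kept a negative sign in each of them, between -0.89 and -0.62 when 1 library was left out.

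ARRDC3 (ENSG00000113369, chr5:91368631-91383317 on the minus strand) had the higher level with Z325 in both lines. In HCT116 its FPKM, computed from the counts, was 27.3 and 24.0 in control and 98.9 and 105 in Z325, or 25.7 ± 2.34 and 101.8 ± 4.01 (SD, n = 2 each). The counts behind these levels were 1816 and 1577 in control, then 6607 and 1791 in Z325, where the last is from the shallowest library. Scaled to CPM, the Z325 libraries held 517 and 513 against 131 and 121 in control, so the treated libraries lay close together despite their different depths. The log2 fold change was 2.03 ± 0.13, or 4.08-fold, at position 113 from the highest of 6491 genes. It was 2.06 ± 0.18 without Z325 replicate 2.

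ARRDC3 in NCI-H716 had an FPKM of 9.90 and 10.3 in control and 24.6 and 20.1 in Z325, or 10.1 ± 0.290 and 22.3 ± 3.19 (SD, n = 2 each). The groups did not overlap, and the log2 fold change was 1.05 ± 0.18, or 2.07-fold, at position 431 from the highest of 14142 genes. The log2 fold change of HCT116 exceeded that of NCI-H716 by 0.99 ± 0.22, given without a test because both values chose the gene. ARRDC3 moved from above 73.1 and 71.5% of expressed genes in the NCI-H716 controls to above 85.5 and 82.6% with Z325. In HCT116 these shares were 85.8 and 87.2% in control and 94.7 and 93.0% with Z325.

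ARRDC3 shares 145 exon bases, 2.9% of its own, with the antisense gene ARRDC3-AS1. The library kit is not described as keeping the strand, so reads of the shared bases cannot be told apart. ARRDC3-AS1 was listed with 4 and 1 counts in the HCT116 controls and 15 and 4 with Z325, and with 1 to 3 counts in each NCI-H716 library. These numbers are small beside the 419 to 6607 counts of ARRDC3.

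ARRDC2 (ENSG00000105643, chr19:18001132-18014102 on the plus strand), a lesser-known member that also binds NEDD4-family ligases, was at 3.93 and 4.60 FPKM in the NCI-H716 controls and 7.25 and 7.70 with Z325. The groups did not overlap, on 103 and 90 counts in control and 156 and 290 in Z325. Its log2 fold change was 0.68 ± 0.26, an interval of 0.17 to 1.20 at 2 SE, with an edgeR adjusted p of 0.233 and an unadjusted p of 0.0233. Over the alternatives its adjusted p ran from 0.0444 to 0.83. ARRDC2 shares 442 exon bases, 9.5% of its own, with ENSG00000279172 on the other strand, so its count is uncertain to that extent.

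ARRDC1 (ENSG00000197070, chr9:137605685-137615360 on the plus strand) was the lowest of the family, at 3.47 and 1.89 FPKM in control and 1.89 and 1.94 in Z325. The groups overlapped, on only 20 to 40 counts a library. The log2 fold change was -0.48 ± 0.51, an interval of -1.50 to 0.54, with an edgeR adjusted p of 0.676, and it was -0.11 without control replicate 1. The interval spans 0 and leaves the direction undetermined. Its exons share 183 bases with ENSG00000283411 on the same strand and 35 with ARRDC1-AS1, which had 21 to 27 counts in each library.

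Thus 0 of the 3 members that were free of the selection passed edgeR's test in NCI-H716 with the filter on low counts and no further term, against the 0.403% of all genes called higher and the 0.099% called lower. At an unadjusted p under 0.05, which 2384 of all 14142 genes had in edgeR, ARRDC2 was higher and ARRDC4 lower. Both DESeq2 and edgeR without the filter called ARRDC4 (adjusted p = 0.0304 and 0.0267). The calls of ARRDC2 and ARRDC4 thus depended on the fit. With 2 libraries in each group, an exact two-sided permutation test cannot give a p below 0.333 for a single gene. Groups that do not overlap thus reach no lower p in that test than 0.333. The share of all genes whose groups did not overlap was not computed.

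**Figure D2:**
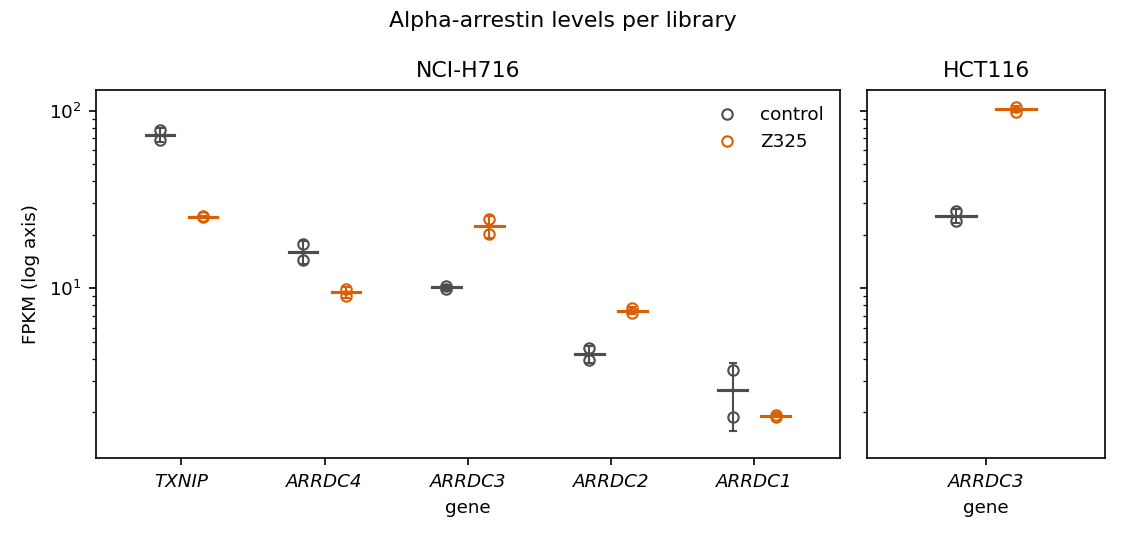
FPKM on a log axis of each alpha-arrestin gene in NCI-H716 and of ARRDC3 in HCT116, where open circles are libraries, horizontal lines means and bars the SD (n = 2 each). In NCI-H716, TXNIP went from 73.3 to 25.3 and ARRDC3 went from 10.1 to 22.3, while ARRDC1 overlapped between the groups. TXNIP in HCT116, at no more than 4 counts, is not drawn.

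**Figure D3:**
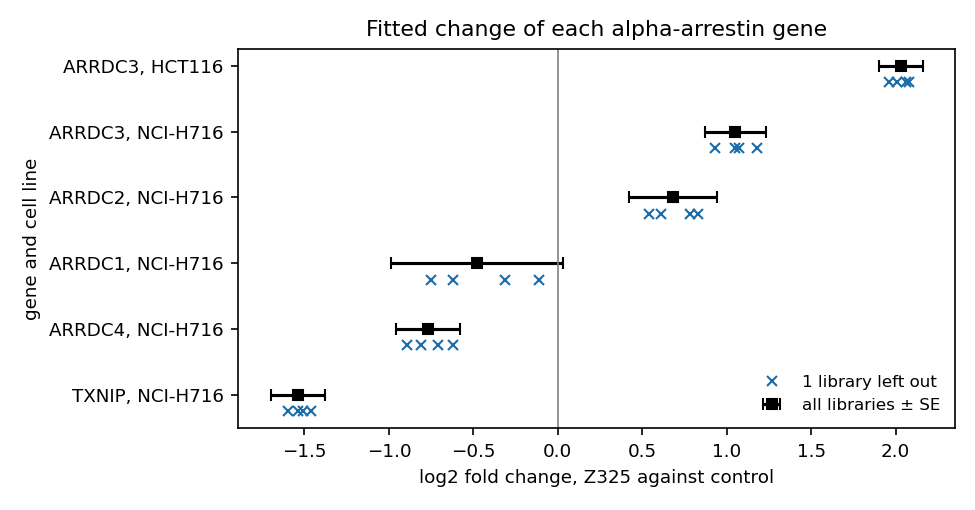
Fitted log2 fold change of Z325 against control for each gene and line, with squares for all libraries, bars for 1 SE and crosses for fits that leave out 1 library. ARRDC3 lies at 2.03 in HCT116 and 1.05 in NCI-H716, TXNIP at -1.54, and every cross stays on the side of 0 of its square.

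Within the family, the order of the levels changed between the groups of NCI-H716. In both control libraries it ran TXNIP, ARRDC4, ARRDC3, ARRDC2 and ARRDC1 by FPKM, and in both Z325 libraries TXNIP, ARRDC3, ARRDC4, ARRDC2 and ARRDC1. In control no neighbours in that order overlapped. The lower ARRDC2 library (3.93) and the higher ARRDC1 library (3.47) were nevertheless closer to each other than the 2 libraries of either gene were. With Z325, the lower TXNIP library (25.2) and the higher ARRDC3 library (24.6) were closer to each other than the 2 ARRDC3 libraries were, so these neighbours did not differ beyond their spread.

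The ratio of TXNIP to ARRDC3 within a library, on the FPKM scale, was 6.92 and 7.57 in control and 1.02 and 1.27 with Z325. ARRDC4 stood at 1.45 and 1.72 times ARRDC3 in control and at 0.366 and 0.494 times with Z325. Between TXNIP and ARRDC4, both lower with Z325, the ratio was 4.78 and 4.39 in control and 2.80 and 2.56 with Z325. These ratios do not depend on the library size, and those with TXNIP or ARRDC3 restate values that chose the genes.

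The 5 genes together summed to 100.2 and 112.6 FPKM in the control libraries and to 67.95 and 65.11 FPKM in the Z325 libraries. TXNIP made up 68.4 and 69.3% of the sum in control and 37.1 and 39.1% with Z325. ARRDC3 went from 9.88 and 9.16% to 36.2 and 30.9%.

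**Figure D4:**
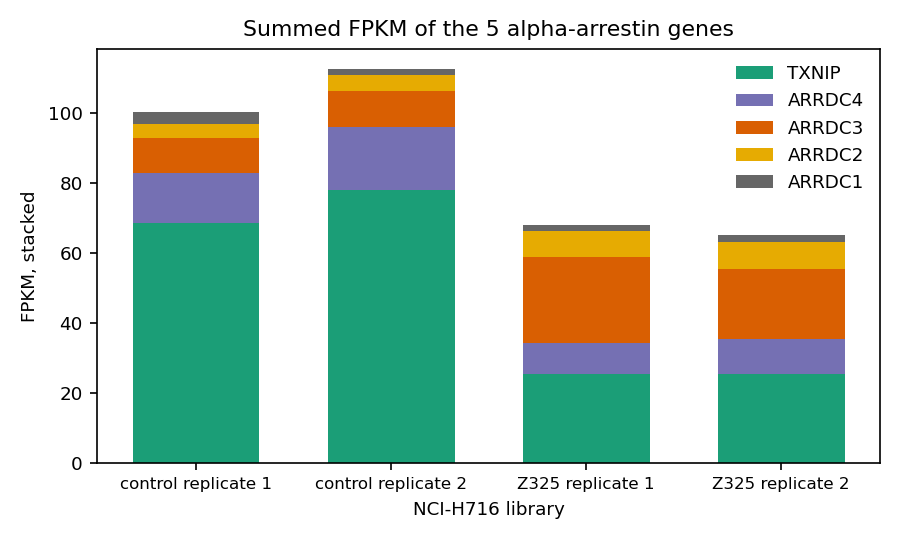
Stacked FPKM of the 5 alpha-arrestin genes in each NCI-H716 library, with 1 bar per library. The bars reach 100.2 and 112.6 FPKM in control and 67.95 and 65.11 FPKM with Z325, and the ARRDC3 segment is taller with Z325.

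Marker sums moved with treatment in NCI-H716 as well. The neuroendocrine markers summed to 823 and 932 CPM in control and to 1060 and 1280 CPM with Z325. CHGB and SCG3 made up most of that sum. They, SCG2 and INSM1 were higher in both Z325 libraries, while SYP was lower (6.89 and 8.24 against 4.51 and 4.72 CPM) and CHGA overlapped. The colon epithelium markers, mostly KRT8 and KRT18, summed to between 749 and 779 CPM in control and between 641 and 652 CPM with Z325. The part of these marker sums in the alpha-arrestin values was not tested.

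The genes that work with the alpha-arrestins were described through 8 lists holding 81 different genes, of which 67 were tested in NCI-H716 and 25 in HCT116. The lists were chosen with earlier results of these data known, so their shares and medians only describe them and test nothing about the lists. In NCI-H716, 2 of the 67 were called higher and 0 lower by edgeR, against 0.403% and 0.099% of all genes. The median log2 fold change of the 67 was 0.16, beside -0.006 over all 14142 genes. Of the 67, 46 were above 0 and 21 below, beside 49.4% above 0 among all genes. At an unadjusted p under 0.05 in edgeR, 8 were higher and 4 lower, beside 2384 of all 14142 genes in either direction, a similar share. DESeq2 called 3 higher and 0 lower. In HCT116, 1 of 25 was called higher and 1 lower, against 2.83% and 2.94% of all genes, with a median of 0.02 beside -0.027, and DESeq2 called 1 higher and 2 lower. For the difference between the lines, 0 of 26 were called by edgeR, beside 5 of all 7642 genes (0.0654%), and 0 of 29 by DESeq2. With edgeR, 4 of the 26 had an unadjusted p under 0.05, beside 1096 of all 7642 genes, a similar share. All 4 were below 0, with the lower change in HCT116. The median difference of the 26 was -0.36, beside -0.052 over all 7642 genes. Of the 26, 6 were above 0 and 20 below, beside 47.2% above 0 among all genes.

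Among the 13 tested genes of the thioredoxin system, which includes the thioredoxin that TXNIP binds, both called genes were reductases. TXNRD1, the cytosolic thioredoxin reductase, was at 159 and 179 CPM in control and 463 and 605 CPM with Z325, a log2 fold change of 1.66 ± 0.18 (edgeR adjusted p = 0.00296). SRXN1, sulfiredoxin, which reactivates oxidised peroxiredoxins, went from 15.4 and 18.7 CPM to 38.9 and 45.2 CPM, a log2 fold change of 1.31 ± 0.21 (adjusted p = 0.0244). In both genes the groups were far apart. TXNRD1 passed in 9 of 11 alternatives and SRXN1 in 8. Both missed the threshold with limma at either pseudocount, and SRXN1 also without control replicate 1 (adjusted p = 0.176).

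The thioredoxins and peroxiredoxins themselves did not pass. TXN, the thioredoxin that TXNIP binds, had a log2 fold change of 0.34 ± 0.16 (adjusted p = 0.302). PRDX2, a cytosolic peroxiredoxin, was at 1330 and 947 CPM in control and 795 and 394 CPM with Z325, a log2 fold change of -0.94 ± 0.29 with an adjusted p of 0.174. TXN2, the mitochondrial thioredoxin, had -0.52 ± 0.19 (adjusted p = 0.232). Of this system, PRDX1 and TXNRD3 were tested in HCT116, with log2 fold changes of 0.12 ± 0.13 and -0.03 ± 0.29.

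Of the glucose sensing and uptake genes, 0 of 11 passed in NCI-H716 and 0 of 5 in HCT116, with edgeR or DESeq2. Beside 1553 of all 6491 HCT116 genes, 1 of the 5 had an unadjusted p under 0.05 there. That gene was SLC2A1, the basal glucose transporter, which TXNIP and ARRDC4 are known to act on. SLC2A1 was at 47.7 and 42.3 CPM in the HCT116 controls and 22.4 and 34.4 CPM with Z325, a log2 fold change of -0.69 ± 0.27 (edgeR adjusted p = 0.167). In NCI-H716 it was at 60.7 and 58.1 CPM and then at 66.3 and 66.5 CPM, with 0.16 ± 0.17 (adjusted p = 0.67). GPI, a glycolytic isomerase, had -0.33 ± 0.18 and PKLR, a pyruvate kinase, 1.39 ± 0.80 in NCI-H716, with adjusted p-values of 0.369 and 0.408. MLXIP and MLX, the glucose-sensing pair, had 0.22 ± 0.18 and -0.31 ± 0.19 in NCI-H716, and the hexokinase gene HK2 had 0.12 ± 0.18.

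The ligases that alpha-arrestins recruit gave 0 called of 10 in NCI-H716 and 0 of 5 in HCT116 with both tools. ITCH and WWP1, NEDD4-family ligases, had log2 fold changes of 0.54 ± 0.19 and 0.68 ± 0.24 in NCI-H716, with adjusted p-values of 0.203 and 0.216. Only these 2 of the 10 had an unadjusted p under 0.05 there, as did 2384 of all 14142 genes. In HCT116, NDFIP1, an adaptor of the same ligases, had 0.37 ± 0.14 (adjusted p = 0.146) and the ligase HECW1 had 0.96 ± 0.43 (0.22). NEDD4 itself had 0.33 ± 0.24 in NCI-H716.

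In the ESCRT list, which holds the vesicle-sorting proteins that take over the ubiquitinated cargo, 1 of 4 genes was called in HCT116 and 0 of 11 in NCI-H716. STAM2, a subunit that binds ubiquitin at the endosome, rose in HCT116 from 105 and 116 CPM to 169 and 174 CPM, a log2 fold change of 0.63 ± 0.15 (edgeR adjusted p = 0.046). The call was not stable: STAM2 passed in 5 of 12 alternatives and missed the threshold in 7. It did not pass without control replicate 1 (0.299) or control replicate 2 (0.253), with library sizes alone (0.0562), without a filter (0.0722) or with limma (0.182 and 0.181). PDCD6IP, also known as ALIX, had -0.55 ± 0.14 (adjusted p = 0.0631) and was called with DESeq2. VPS37A, an ESCRT subunit, had 0.41 ± 0.14 in HCT116 (adjusted p = 0.128), and VPS37B, its relative, -1.28 ± 0.50 in NCI-H716 (0.244). VPS28 in HCT116 was at 1.80 CPM in Z325 replicate 1 and at 31.5 CPM in the shallow replicate 2, against 3.91 and 4.53 CPM in control. TSG101, which ARRDC1 recruits, had -0.06 ± 0.20 in NCI-H716.

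Of the membrane proteins described as alpha-arrestin cargo, 1 of 3 tested in HCT116 was called lower and 0 of 5 in NCI-H716. F2R, the thrombin receptor, fell in HCT116 from 24.4 and 20.6 CPM to 6.88 and 4.58 CPM, a log2 fold change of -1.92 ± 0.34 (edgeR adjusted p = 0.0195). F2R passed in 8 of 12 alternatives. The call was lost without control replicate 1 (adjusted p = 0.169) or control replicate 2 (0.159), and with limma at either pseudocount. INSR, the insulin receptor, had 0.48 ± 0.24 in NCI-H716 (adjusted p = 0.33), and SLC2A4, the insulin-responsive glucose transporter, 0.79 ± 0.66 (0.582).

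The remaining lists gave 0 calls with edgeR in either line. Of the 10 FOXO factors and targets tested in NCI-H716, CDKN1B, a cell cycle inhibitor, had 0.97 ± 0.28 (adjusted p = 0.156), IRS2, an insulin receptor substrate, 0.85 ± 0.25 (0.159) and SESN3, a stress-induced sestrin, 0.49 ± 0.19 (0.245). These 3 of the 10 had an unadjusted p under 0.05, as did 2384 of all 14142 genes. In HCT116 0 of 5 did, beside 1553 of all 6491 genes. BCL2L11, a pro-apoptotic protein, had -0.89 ± 0.45 there (0.272). Of 5 TXNIP partners and kinases in NCI-H716, DDIT4, an inhibitor of mTOR signalling, had 1.31 ± 0.30 (adjusted p = 0.101) and was called with DESeq2. AKT1, a kinase of insulin signalling, had -0.42 ± 0.21 (0.332) there. Of the AMPK subunits, PRKAA2 had 0.38 ± 0.22 in HCT116 (0.323) and 0.26 ± 0.19 in NCI-H716 (0.524). PRKAA1 had 0.01 ± 0.15 in HCT116 (0.974) and 0.23 ± 0.17 in NCI-H716 (0.535). The 5 tested beta-arrestins and VPS26 proteins, which share the arrestin fold, had log2 fold changes between -0.10 and 0.34, with 0 at an unadjusted p under 0.05. Those with the smallest adjusted p were VPS26A (0.34 ± 0.17), ARRB1 (0.23 ± 0.29), VPS26C (-0.10 ± 0.23) and ARRB2 (0.12 ± 0.28).

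**Figure D5:**
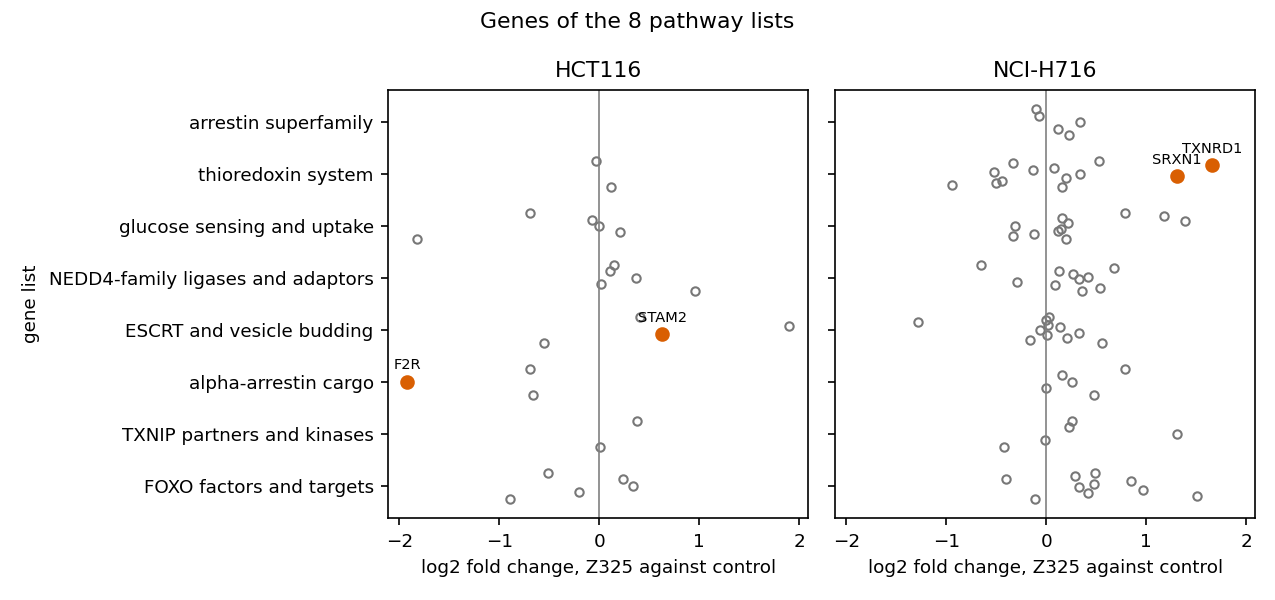
Log2 fold change of Z325 against control for every tested gene of the 8 lists in HCT116 and NCI-H716, 1 point per gene, with filled and named points for an edgeR adjusted p under 0.05. STAM2 (0.63) and F2R (-1.92) are named in HCT116, and TXNRD1 (1.66) and SRXN1 (1.31) in NCI-H716.

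The genes whose pattern was most like that of ARRDC3 were ranked by Pearson's r of log2(CPM + 1) over the 8 libraries, after the mean of each line was removed, among 5014 genes tested in both lines. They were NCOA7, a nuclear receptor coactivator (0.998), EIF4A2, a translation helicase (0.995), SMIM14, a small membrane protein (0.994), YPEL5 (0.990) and CAMLG, which takes part in inserting tail-anchored proteins (0.990). An r above 0.95 was reached by 76 genes and one above 0.9 by 190. The libraries are few and share the treatment contrast, so the r values only describe likeness.

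Of these 5, SMIM14 came closest in size, with log2 fold changes of 1.91 ± 0.15 in HCT116 and 0.81 ± 0.17 in NCI-H716. YPEL5 had 1.38 ± 0.15 and 0.59 ± 0.21, NCOA7 0.89 ± 0.25 and 0.47 ± 0.19, and EIF4A2 0.81 ± 0.12 and 0.52 ± 0.15. CAMLG had the smallest changes, 0.59 ± 0.14 and 0.24 ± 0.17. An r this close to 1 nearly fixes the ratio between the lines to that of ARRDC3, so the larger values in HCT116 restate the choice of these genes. No such ranking is given for TXNIP, whose HCT116 counts were at the floor.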

How the data were processed

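RNA of 8 libraries was amplified by SMART-Seq2 and sequenced on an Illumina instrument. According to the study's methods, reads were trimmed with TrimGalore, aligned to GRCh38 with STAR and quantified with RSEM, whereas the submitters' processing notes name Bowtie2 2.5.0, featureCounts and hg38. The NCI-H716 tables have the layout of RSEM output and the HCT116 table that of featureCounts output. The sources used here do not name the tool behind each. For NCI-H716 the authors deposited RSEM's expected counts, TPM and FPKM per gene (63241 genes, 62666 identifiers with a symbol in GENCODE v44). For HCT116 the authors deposited raw counts with exon lengths. Of 28047 lines 4 were broken or unfinished and were left out, and the last gene read lies on chromosome 9, up to base 4587469. The FPKM of HCT116 were computed here from the counts, the lengths and the listed totals, so levels of the 2 lines are set side by side without a test.

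Expected counts were rounded. Each line was fitted alone with edgeR 4.0.16 (R 4.3.3; TMM, filterByExpr, quasi-likelihood test, Benjamini-Hochberg adjustment over all genes tested), and the difference between the lines with an interaction term over genes in both tables. CPM are TMM-scaled, except the floors, which are 3 counts over the listed total. SE are the fitted log2 fold change divided by the square root of F. Alternatives used DESeq2 1.42.0, limma 3.58.1 on log2(FPKM + 1) or log2(FPKM + 0.1) with a mean FPKM over 0.1, library sizes alone, no filter, at least 10 counts in every library, a replicate block, all 8 libraries in 1 fit, and each library left out in turn. Tested on simulated data with 200 genes changed 4-fold, the step recovered 196 of them in HCT116 (6 false calls, 6491 genes), 193 in NCI-H716 (9 false calls, 14142 genes) and 190 for the difference (9 false calls). That last simulation ran on the 4158 genes with at least 10 counts in every library, fewer than the 7642 of the reported fit. All genes were simulated with the same relative spread, and every changed gene rose, so the recovery does not carry over to smaller changes.

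Libraries titled Test were read as Z325-treated. The study calls its repeats biological duplicates, and no label names separate cultures, so p-values measure the spread between these libraries. Intervals of 2 SE include the spread between libraries, while the floors cover counting error only. The members and the gene lists were chosen with earlier results of these data known. All 5 members are named, and of each list every gene that passed and up to 4 genes with the smallest adjusted p, in either line, while TXN, MLX, MLXIP, HK2, NEDD4, TSG101, VPS28, PRDX1, TXNRD3 and the near-0 genes of HCT116 were named after their values had been seen. The values of 1 gene that the rule names are not reported here. Sequences are from RefSeq.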

Additional observations from a re-analysis of the deposited data

How the results depend on the processing

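Of 128 combinations of 11 results with an alternative, 99 kept their side of the threshold or their size, and 0 member log2 fold changes changed sign. ARRDC4 passed with DESeq2 (-0.76, adjusted p = 0.0304) and without a filter (-0.75, adjusted p = 0.0267). The replicate numbers only name the libraries: deviations of same-numbered libraries correlated at -0.0308 in HCT116 and 0.198 in NCI-H716. With the replicate block ARRDC2 (0.68, adjusted p = 0.0444) and ARRDC4 (-0.77, adjusted p = 1.11e-05) passed, and listed genes called in NCI-H716 numbered 9 higher and 6 lower, with 0 higher in HCT116. Among all genes the replicate block called 1061 higher and 1336 lower in NCI-H716, against 57 and 14.

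Leaving out 1 library gave log2 fold changes of 1.96 to 2.08 for ARRDC3 in HCT116, 0.93 to 1.18 in NCI-H716 and 0.86 to 1.08 for their difference, -1.60 to -1.46 for TXNIP, -0.89 to -0.62 for ARRDC4, 0.54 to 0.83 for ARRDC2 and -0.75 to -0.11 for ARRDC1. It gave 0 to 3 listed genes higher and 0 to 6 lower in HCT116, and 2 to 6 higher and 0 to 4 lower in NCI-H716. Both HCT116 counts were 0 without either control replicate, they were 3 and 6 without Z325 replicate 2, and 2 were higher without Z325 replicate 1. Those of NCI-H716 were 6 and 4 without Z325 replicate 1. A lone library in a group is assumed to vary like the other groups.

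Listed genes called higher in HCT116 numbered 0 with library sizes alone and with limma at both pseudocounts. Listed genes called lower there numbered 2 with DESeq2, without a filter and with at least 10 counts, and 0 with limma at both pseudocounts. In NCI-H716, 5 were higher and 1 lower without a filter, and 0 higher with limma at both pseudocounts. The cause was not tested. With all 8 libraries in 1 fit 0 were higher. TXNRD1 and SRXN1 are not among the genes of both tables and did not enter that fit, so their loss was fixed in advance. Other listed genes did enter it and were not called higher.

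Among all genes, calls in HCT116 numbered 360 higher and 362 lower with DESeq2, 260 and 423 without a filter, 270 and 345 with at least 10 counts, and 0 and 0 with limma at both pseudocounts, where 1372 and 1431 genes had an unadjusted p under 0.05. Without control replicate 1 they numbered 15 and 29, without control replicate 2 17 and 6, without Z325 replicate 1 438 and 533, and without Z325 replicate 2 514 and 562. In NCI-H716 they numbered 156 and 164 with DESeq2, whose median log2 fold change over all genes was 0.123, 290 and 487 without a filter, 71 and 28 with library sizes alone, 17 and 2 with all 8 libraries, 5 and 1 or 6 and 3 with limma, and 31 to 502 higher and 7 to 884 lower with 1 library left out.

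The limits are 2 libraries per group, 20 to 40 counts a library for ARRDC1, a single shallow HCT116 library of 3434620 counts, and an HCT116 table that covers 2 of the 5 genes, one of them at the floor.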
